A study of Mus musculus with 4 samples.

Results

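Elastin-dominant cells are cells of the ascending aorta that carried smooth muscle transcripts but held at least as much RNA of elastin (Eln) as of the contractile genes Acta2 and Tagln together. They were chosen by a fixed rule on the counts of each cell barcode: at least 200 detected genes, a mitochondrial share of UMIs (unique molecular identifiers, 1 per captured RNA molecule) below 20%, Acta2 plus Tagln at 0.3% of UMIs or more, Eln UMIs equal to or above Acta2 plus Tagln UMIs, and 0 UMIs of the leukocyte gene Ptprc and of the endothelial gene Pecam1. The rule found 1294 such cells among 40565 kept barcodes of 4 libraries. The other 9005 barcodes that met the smooth muscle conditions, but had less Eln than Acta2 plus Tagln, are called other smooth muscle cells and serve for comparison. Eln, Acta2, Tagln, Ptprc and Pecam1 chose the cells, so their values are a description without a test.

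Tissue came from male wild-type mice in which aortic dissection was induced with BAPN, an inhibitor of the enzymes that cross-link elastin and collagen, which the mice drank at 1 g/kg per day for 4 weeks, starting at 3 weeks of age. In the AD_ABR group (2 libraries) the mice also received paquinimod (ABR), a small molecule that binds the inflammatory protein S100A9, by the intragastric route at 10 mg/kg per day. The AD group (2 libraries) had the BAPN model alone, and no group without BAPN was analysed here. The labels do not say whether the libraries are separate animals or pools, so p-values measure the spread between these libraries only.

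Elastin is secreted by vascular smooth muscle cells as a soluble precursor, laid on a scaffold of fibrillin microfibrils with the help of fibulins, and cross-linked by lysyl oxidases. Most elastin of the aorta is made before and shortly after birth, and the elastic layers then have to last. A smooth muscle cell can shift between a contractile state, rich in actin, myosin and their regulators, and a synthetic state that makes matrix.

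The libraries held 93575612 and 98946431 UMIs in AD_ABR, against 76142840 and 99572011 UMIs in AD. The elastin-dominant cells numbered 294 and 299 in AD_ABR, against 188 and 513 in AD. Their sums held between 1770661 and 4564049 UMIs per library, which sets the depth behind each level given here as CPM (counts per 1000000 summed UMIs of a set of cells in 1 library). A median elastin-dominant cell had 7877.5 and 7533 UMIs in AD_ABR, against 8186.5 and 7076 in AD, so depth per cell overlapped between the groups. No barcode of an elastin-dominant cell occurred in a second library, while 18 to 36 kept barcodes were shared by each pair of libraries. Summed counts of these cells differed beyond counting noise between replicates, with a chi-square per degree of freedom of 3.44 in AD_ABR and 9.44 in AD. Ribosomal RNA moved with the groups: Rn18s-rs5, a ribosomal repeat, stood at 20661 and 14600.1 CPM in the elastin-dominant cells of AD_ABR, against 60187 and 34897 CPM in those of AD. Its part in the results below was not tested.

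Eln itself (chromosome 5, 134702593 to 134747323, minus strand, GENCODE M21 on GRCm38) took 27221 and 23083 CPM in the elastin-dominant cells of AD_ABR, and 29660.1 and 24811 CPM in those of AD. In the other smooth muscle cells it took 4988 and 5809 CPM in AD_ABR, and 4563 and 4990.5 CPM in AD. The median elastin-dominant cell gave Eln 1.94 and 1.99% of its UMIs in AD_ABR, against 2.76 and 1.94% in AD. Acta2 plus Tagln took a median of 1.03 and 1.05% of its UMIs in AD_ABR, against 0.936 and 0.757% in AD. Neither set of medians is a finding about the treatment, since the rule sets their order within each cell.

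**Figure D1:**
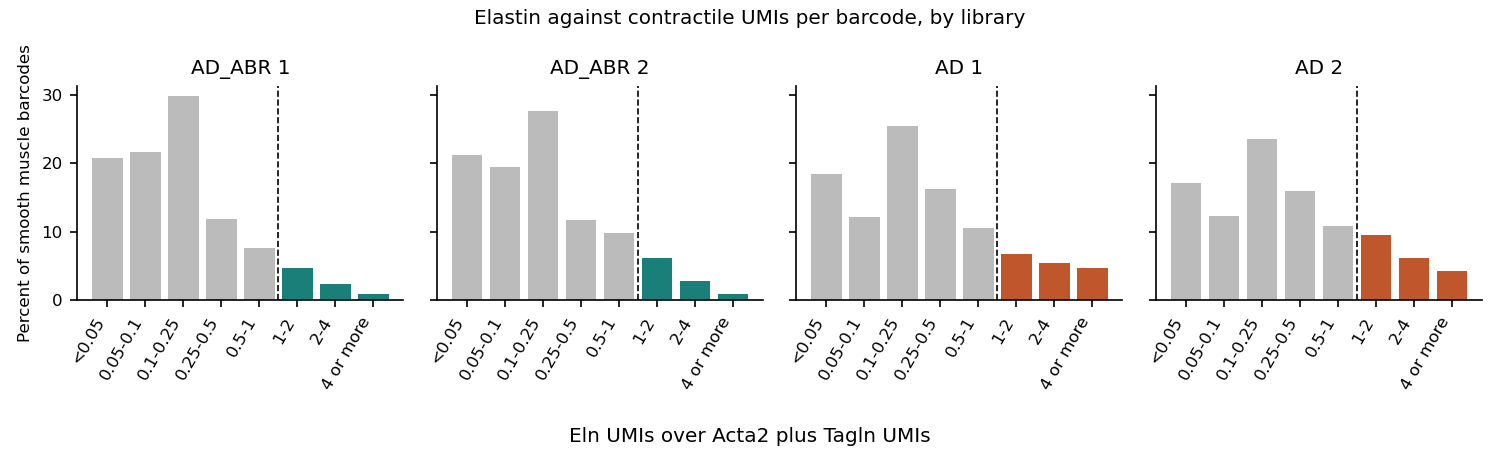
Share of each library's smooth muscle barcodes (vertical axis, percent) by the ratio of Eln UMIs to Acta2 plus Tagln UMIs (horizontal axis, 8 bands), 1 panel per library. Coloured bars right of the dashed line, at a ratio of 1 or more, are the elastin-dominant cells; the bars fall away without a gap at the line.

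The ratio of Eln to Acta2 plus Tagln ran without a break across the limit of the rule, as the plot of ratio bands shows. Just inside, at ratios of 1 to 1.25, there were 76 and 78 cells in AD_ABR, against 27 and 91 in AD. Just outside, at ratios of 0.8 to 1, there were 72 and 86 cells in AD_ABR, against 32 and 68 in AD. Levels on either side of the line were close for some genes and apart for others. Myh11, the smooth muscle myosin heavy chain, was at 1624 and 1805 CPM inside and at 1846 and 1815 CPM outside in AD_ABR, and at 1589 and 1177 CPM inside and 1964 and 1685 CPM outside in AD. Lox was at 792 and 688 CPM inside and 727 and 651 CPM outside in AD_ABR, and at 746 and 1404 CPM inside and 743 and 770.4 CPM outside in AD, so it stood apart in AD replicate 2. Col1a1, a chain of type I collagen, was likewise higher inside in AD replicate 2, at 6984 CPM inside and 3952 CPM outside. No gap in the ratio set the elastin-dominant cells apart from the other smooth muscle cells.

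The other limit, on Acta2 plus Tagln, passed some cells with little contractile RNA. At shares of 0.3 to 0.4% of UMIs, just inside that limit, Myh11 stood at 147 and 274 CPM in AD_ABR, against 184 and 185 CPM in AD. The collagen gene Col1a1 stood in the same cells at 7814 and 4380 CPM in AD_ABR, against 9604 and 9141 CPM in AD. Some barcodes with a Ptprc UMI passed the 0.3% limit too, 11.3 and 8.57% of them in AD_ABR, against 2.89 and 6.90% in AD. Free RNA in the droplets, doublets and a stray Ptprc UMI in a smooth muscle cell were not told apart. The median Ptprc barcode gave Acta2 plus Tagln 0.056 and 0.044% of its UMIs in AD_ABR, against 0.0096 and 0.039% in AD. Both conditions on Eln, Acta2 and Tagln were met by 1.08 and 1.46% of those Ptprc barcodes in AD_ABR, against 0.715 and 1.37% in AD. Elastin-dominant cells made up 3.23 and 2.77% of kept barcodes in AD_ABR, against 1.89 and 4.80% in AD. The denominators differ, and the part of free RNA in the elastin-dominant cells was not tested. The Ptprc barcodes had a median of 8127 and 7218 UMIs in AD_ABR, against 4062.5 and 5656 in AD, and all kept barcodes had 9529 and 8397.5 UMIs in AD_ABR, against 5569 and 7292 in AD.

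The proposed name of these cells, elastin-dominant smooth muscle, held for Lox but not for Actg2. Lox, the main lysyl oxidase, was at 1008 and 813 CPM in the elastin-dominant cells of AD_ABR and at 975 and 1440 CPM in those of AD. The other smooth muscle cells had 428 and 403 CPM of Lox in AD_ABR, and 451 and 456 CPM in AD, below every elastin-dominant sum. Actg2, the enteric smooth muscle actin, was at 283 and 185 CPM in the elastin-dominant cells of AD_ABR and at 316 and 140 CPM in those of AD. Its level in the other smooth muscle cells was 478 and 464 CPM in AD_ABR, and 317 and 433 CPM in AD, so Actg2 was lower in the elastin-dominant cells of each library, in AD replicate 1 by less than 1 CPM. All 8 smooth muscle markers were detected in every library, but Acta2 and Tagln among them chose the cells. All 8 were also detected in the rest of the kept barcodes, those outside the smooth muscle conditions. Detection therefore says little about the name. Fibroblast markers and most pericyte markers were detected in the elastin-dominant cells as well.

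Against the other smooth muscle cells, the elastin-dominant cells held less of the contractile programme and more of the matrix programme. Since the rule divided the cells by Eln against Acta2 plus Tagln, this contrast is the rule's own and is described with no test. Genes at least 2-fold higher in the elastin-dominant cells of all 4 libraries, on a scale of CPM plus 5 and with 20 CPM or more, numbered 30 of 5426 (0.553%), and 19 genes (0.35%) were at least 2-fold lower. The widest ratio was that of Prss12, a secreted serine protease, at 139 and 162 CPM in the elastin-dominant cells of AD_ABR and 70.6 and 61.3 CPM in those of AD. In the other smooth muscle cells Prss12 was at 8.82 and 15.01 CPM in AD_ABR and at 1.30 and 6.45 CPM in AD. The median ratio was 9.33-fold.

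Secreted regulators of growth factor signals were among the higher genes, which were ordered by the ratio in the library where it was narrowest. Frzb and Sfrp2, which bind Wnt ligands outside the cell, were 5.18-fold and 4.71-fold higher by the median over libraries. Adamtsl1, an ADAMTS-like matrix glycoprotein, was 5.23-fold higher, and Gdf10, a ligand of the TGF-beta superfamily, 4.16-fold. Ltbp2, which binds fibrillin microfibrils, was at 451 and 369 CPM in the elastin-dominant cells of AD_ABR and 434 and 702 CPM in those of AD. The other smooth muscle cells had 75.2 and 84.6 CPM of Ltbp2 in AD_ABR and 135 and 148 CPM in AD. Fbln5, a fibulin needed for elastic fibre assembly, was 2.70-fold higher, at 2124 and 2227 CPM in the elastin-dominant cells of AD_ABR and 1677 and 2053 CPM in those of AD. The adhesion molecule Vcam1, the gelatinase Mmp2, the heparin-binding factor Mdk, the decoy receptor Tnfrsf11b (osteoprotegerin), the xylosyltransferase Gxylt2 and the ubiquitin ligase Lnx1 were 2.88-fold to 3.61-fold higher. In the rest of the kept barcodes Mmp2 was higher still, at 408 and 544 CPM in AD_ABR and 308 and 362 CPM in AD. The elastin-dominant cells had 279 and 367 CPM of Mmp2 in AD_ABR and 230 and 346 CPM in AD. Gdf10, Vcam1 and Mdk were higher in the rest in some libraries and lower in others. The other named higher genes were lower in the rest in every library. Prss12 and Adamtsl1 also lead the largest cluster of elastin-dominant cells, and Tnfrsf11b a smaller one, described below.

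On the lower side stood genes of the contractile apparatus and its filaments. Des, the muscle intermediate filament desmin, was at 11.9 and 29.1 CPM in the elastin-dominant cells of AD_ABR and 27.1 and 14.5 CPM in those of AD. The other smooth muscle cells had 152 CPM of Des in both AD_ABR libraries, and 178 and 150.4 CPM in AD. Tnnt2, a troponin of the cardiac type, was at 23.0 and 20.02 CPM in the elastin-dominant cells of AD_ABR and 54.2 and 27.6 CPM in those of AD, against 126 and 136 CPM in the other smooth muscle cells of AD_ABR and 198 and 142 CPM in those of AD. Ppp1r14a, which inhibits myosin phosphatase, Synpo2, an actin-binding protein, and Filip1l, a filamin-interacting protein, had 0.24, 0.43 and 0.43 of the level in other smooth muscle cells. Sparcl1, Bcam, Optc, Perp, Tppp3, Rbpms2, Dgkb, Efhd1 and Bex4 complete the named lower genes, at 0.19 to 0.41 of that level.

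Read by lists, 19 of 20 contractile genes were lower in the elastin-dominant cells of all 4 libraries and 0 were higher, with a median log2 ratio of −0.99. Myh11 was at 1320 and 1339 CPM in the elastin-dominant cells of AD_ABR and 1592 and 1010.3 CPM in those of AD, while the other smooth muscle cells had 2949 to 3405 CPM. Of 19 elastic fibre genes 12 were higher in all 4 libraries and 0 were lower (median 0.53). Fbn1, which encodes fibrillin-1, was at 682 and 645 CPM in the elastin-dominant cells of AD_ABR and 571 and 768 CPM in those of AD, above the 262 to 374 CPM of the other smooth muscle cells. Of 5 lysyl oxidases 3 were higher in all 4 libraries, of 16 collagen chains 11 (median 0.69) and of 20 proteoglycan and matricellular genes 14, with 3 lower (median 0.75). Over all 5426 genes 22.1% were higher and 26.5% lower in all 4 libraries.

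**Figure D2:**
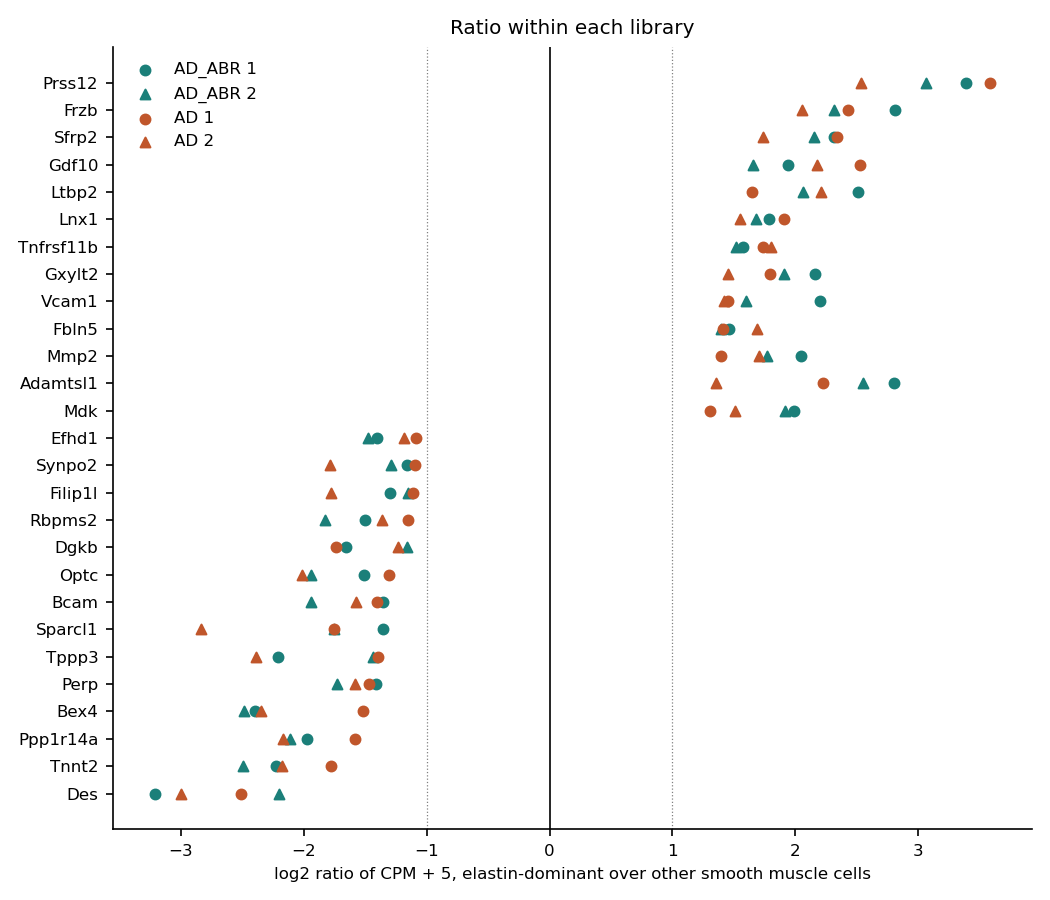
Log2 ratio of CPM plus 5 in elastin-dominant over other smooth muscle cells (horizontal axis) for the named genes (vertical axis), 1 point per library with AD_ABR and AD in different colours. All points of the higher genes lie at 1 or more and all points of the lower genes at −1 or less, which is how they were chosen; Prss12 reaches 3.59.

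Summed fibroblast and pericyte markers moved with this contrast. The 12 fibroblast markers summed to 2647 and 4077 CPM in the elastin-dominant cells of AD_ABR and 2456 and 3782 CPM in those of AD, against 1322 and 1781 CPM in the other smooth muscle cells of AD_ABR and 1669 and 2117 CPM in those of AD. In the rest of the kept barcodes they summed to between 6864 and 14639.5 CPM. The 8 pericyte markers summed to 2185 and 2007 CPM in the elastin-dominant cells of AD_ABR and 2152 and 1251 CPM in those of AD. Other smooth muscle cells held 661 to 900 CPM. Most of these sums was Rgs5. Of the 8 pericyte markers 2 were higher in all 4 libraries and 2 were lower. In the elastin-dominant cells Higd1b was at 0 in all 4 libraries, and Vtn in all but AD_ABR replicate 1. Among the endothelial markers Pecam1 was at 0 by the rule. The 12 chondrocyte markers summed to 248 to 525 CPM, the 10 endothelial ones to 42.8 to 61.0 CPM and the 10 macrophage ones to 89.8 to 259.5 CPM in the elastin-dominant cells. Their part in the contrast was not tested. Of the 12 fibroblast markers 10 were higher in all 4 libraries and 0 were lower.

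Clustered on their own, the elastin-dominant cells split into 8 groups, which are called here by their leading genes. The genes that lead a cluster come from the same cells that were clustered and carry no test. The largest cluster, 377 cells, was led by Adamtsl1, Prss12, Hhip, Rgs5, Tfap2b and the homeobox genes Dlx5, Msx2 and Dlx6. In it Rgs5, a regulator of G-protein signals, stood at 3781 CPM, Eln at 28154 CPM and Myh11 at 1822 CPM. It held 40.5 and 32.4% of the elastin-dominant cells of AD_ABR, against 31.4 and 19.9% of those of AD, so the AD_ABR values lay above the AD values. The gap between AD_ABR replicate 2 (32.4%, 97 cells) and AD replicate 1 (31.4%, 59 cells) was narrow. With 2 libraries against 2, such an order of cluster shares says little by itself. Only 1.59% of the cells of this cluster had a high doublet score. Among all elastin-dominant cells that share was 9.86 and 18.7% in AD_ABR, against 12.8 and 12.9% in AD. Among the other smooth muscle cells it was 9.63 and 10.5% in AD_ABR, against 10.4 and 11.6% in AD.

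A cluster of 192 cells, 4.69% of them with a high doublet score, was led by Wnt16, Igfbp2, the protein tyrosine phosphatase Ptprz1 and Postn. With all libraries summed, its Tagln stood at 7565 CPM and its Eln at 38678 CPM, while in AD replicate 1 its Eln of 32012 CPM was below the 39666 CPM of the Rgs5 and Prss12 cluster. It held 18.7 and 11.4% of elastin-dominant cells in AD_ABR, against 23.9 and 11.3% in AD, and the groups overlapped. Another cluster, 135 cells, was led by the cartilage and bone matrix genes Col2a1, Spp1 and Col10a1 with Thbs1 and Mgp, an inhibitor of calcification. Mgp took 65091 CPM there, and 15.6% of these cells had a high doublet score. This cluster held 3.74 and 8.03% of elastin-dominant cells in AD_ABR, against 12.8 and 14.8% in AD, with no overlap. It had 11 and 24 cells in AD_ABR, against 24 and 76 in AD. Its Col2a1, at 0 and 14.4 CPM in AD_ABR, against 573 and 102 CPM in AD, therefore rests on few cells.

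A cluster of 176 cells was led by Igfbp5, Rbp4, Igfbp6, Pex5l and Upk3b, with the fibroblast markers Clec3b and Dpep1 further down and Pi16 at 519.6 CPM. Its fibroblast markers summed to 8539 CPM and 43.8% of its cells had a high doublet score. The 7 mesothelial markers, Upk3b and Msln among them, summed to 103 CPM there, against 3.73 CPM in the remaining elastin-dominant cells. By library they summed to 74.1 and 3.14 CPM in the elastin-dominant cells of AD_ABR, against 5.08 and 3.07 CPM in those of AD, so AD_ABR replicate 1 stood apart. It held 14.3 and 24.4% of elastin-dominant cells in AD_ABR, against 11.2 and 7.80% in AD. A cluster of 98 cells, led by Plac8, Prg4, Il6 and other inflammatory genes, came almost wholly from AD replicate 2: it had 4 and 5 cells in AD_ABR, against 5 and 84 in AD. Its fibroblast markers summed to 8050 CPM, and 14.3% of its cells had a high doublet score. A cluster of 230 cells had a median of 2536 UMIs, a high doublet score in 0.87% and high Mcam, Dmd and mt-Rnr1, a mitochondrial ribosomal RNA. The last 2 were a cluster of 52 cells with macrophage and neutrophil genes (C1qb, Lyz2, S100a8), a median of 1246 UMIs and a high doublet score in 61.5%, and a cluster of 34 cycling cells (Mki67, Top2a), of which 41.2% had a high doublet score. Clusters were not given cell type names, because the leading genes of several go against smooth muscle.

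**Figure D3:**
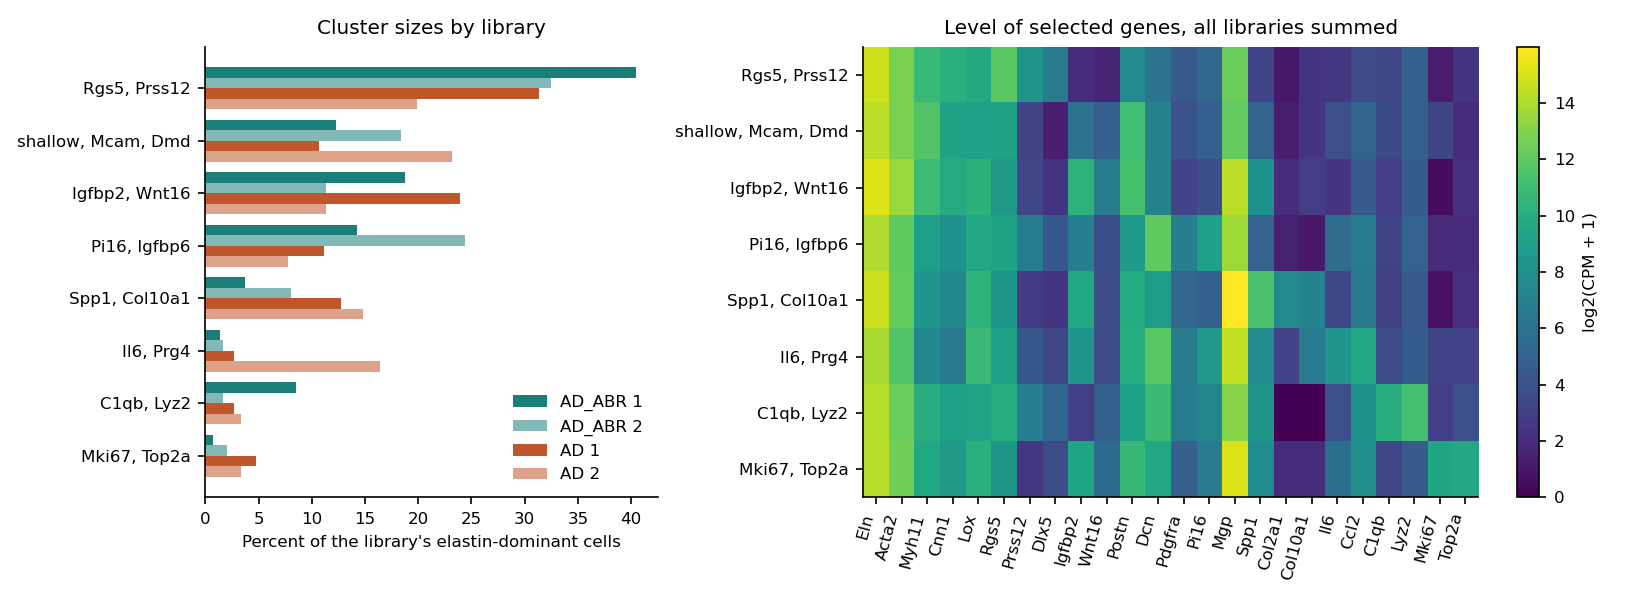
Left, share of each library's elastin-dominant cells (horizontal axis, percent) in each of the 8 clusters, AD_ABR bars above AD bars. Right, level of selected genes by cluster, log2 of CPM plus 1 with all libraries summed; the Il6 cluster is 16.4% of AD replicate 2 and under 3% of every other library.

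The frequency of elastin-dominant cells was compared between the groups in 2 ways. As a share of all kept barcodes they were 3.23 and 2.77% in AD_ABR, against 1.89 and 4.80% in AD, and the groups overlapped. The means were 2.996% ± 0.324 in AD_ABR and 3.34% ± 2.05 in AD (SD, n = 2 each; exact two-sided permutation p = 1). As a share of barcodes that met the smooth muscle conditions they were 8.06 and 9.97% in AD_ABR, against 17.1 and 20.1% in AD. Here both AD_ABR libraries lay below both AD libraries. The means were 9.02% ± 1.36 in AD_ABR and 18.6% ± 2.16 in AD, a difference of −9.57 percentage points (exact permutation p = 0.333, the smallest that 2 libraries against 2 allow). Exact 95% binomial intervals of this share, which cover counting error only, ran from 7.19 to 8.99% and from 8.92 to 11.1% in AD_ABR, and from 14.9 to 19.4% and from 18.6 to 21.7% in AD. The share moved with its denominator: smooth muscle barcodes made up 33.9% ± 8.69 of kept barcodes in AD_ABR and 17.5% ± 9.02 in AD. Contractile RNA moved too: the median other smooth muscle cell gave Acta2 plus Tagln 3.54 and 3.83% in AD_ABR, against 2.55 and 2.78% in AD. Its Eln took 0.368 and 0.406% in AD_ABR, against 0.349 and 0.372% in AD. The part of these levels in the share was not tested. The difference was −4.86 percentage points with Acta2 plus Tagln at 1% of UMIs or more, −6.84 with Eln at 2 times Acta2 plus Tagln or more, and −9.82 with every barcode thinned to 2000 UMIs.

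Within the elastin-dominant cells, paquinimod treatment went with more of several glucocorticoid-induced genes and of 2 chaperone-linked genes of the endoplasmic reticulum, and with less of inflammatory, sterol and cell-cycle genes. UMIs were summed per library and tested with edgeR's quasi-likelihood test, AD_ABR over AD, with Benjamini-Hochberg adjustment over 11066 genes. At an adjusted p under 0.05, 34 genes rose (0.307%) and 59 fell (0.533%), 93 in all (0.84%). CPM of the 2 groups did not overlap for 46% of all genes, so the lack of overlap at a single gene says little by itself. The count rested on the libraries and on the choice of barcodes: it was 540 without AD replicate 1, 578 without AD replicate 2, 21 with a mitochondrial share below 10% and 29 with high doublet scores removed. Of 34 genes, the 24 with the widest changes by the rule for naming and 10 called genes of the lists, 22 did not pass with the lower mitochondrial limit (adjusted p of 0.0626 to 0.113), and none changed direction there. Genes that define the cells (Lox, Actg2 and the contractile and elastic fibre genes) were not among those called.

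Zbtb16, a zinc finger transcription factor that glucocorticoids induce, was at 144 and 141 CPM in AD_ABR, against 49.7 and 43.2 CPM in AD. The libraries of each group lay close together and the groups were far apart. Its log2 fold change was 1.60 ± 0.15 (SE), with an adjusted p = 0.00458, and it passed under 16 of 16 alternatives fitted. Fkbp5, a co-chaperone of the glucocorticoid receptor, was at 39.5 and 56.9 CPM in AD_ABR, against 13.6 and 18.4 CPM in AD (log2 fold change 1.50 ± 0.25, adjusted p = 0.0382). Klf15, a Krüppel-like factor of the same response, was at 41.8 and 42.0 CPM in AD_ABR, against 13.0 and 7.67 CPM in AD (2.10 ± 0.25, adjusted p = 0.0149). Of 15 glucocorticoid response genes tested these 3 rose and 0 fell, and the list's median log2 fold change was 0.55, against −0.01 over all genes. Tsc22d3, another gene of the list, had 65.3 and 119 CPM in AD_ABR, against 40.7 and 35.7 CPM in AD, and did not pass (adjusted p = 0.104), and Per1 had a log2 fold change of −0.45 (adjusted p = 0.299). Without AD_ABR replicate 2 Fkbp5 did not pass (1.25, adjusted p = 0.125).

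The same test was run inside 1 cluster. In the cells of the Rgs5 and Prss12 cluster only, 62 of 7333 genes were called (0.845%), 25 of them up (0.341%) and 37 down (0.505%), and 15 were also among the 93. There Zbtb16 had a log2 fold change of 1.38 (adjusted p = 0.000361), Fkbp5 of 2.71 (adjusted p = 0.0026) and Klf15 of 1.95 (adjusted p = 0.0041). The glucocorticoid list had 5 genes up and 0 down of 15 in that cluster. These cells are 29.1% of those whose sums gave the 93 calls, so the values are not independent of them.

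Among the genes that rose, 5 are leading genes of that same cluster, whose share was 40.5 and 32.4% in AD_ABR, against 31.4 and 19.9% in AD. The part of that share in their change was not tested. Prss12 was at 139 and 162 CPM in AD_ABR, against 70.6 and 61.3 CPM in AD (log2 fold change 1.17 ± 0.15, adjusted p = 0.0177). Within the cluster its fold change was 0.20 (adjusted p = 0.736). Hhip, which binds Hedgehog ligands, Adamtsl1 and Dlx5, a homeobox factor, rose by 1.46, 1.16 and 1.10 in all elastin-dominant cells (adjusted p = 0.0412, 0.0382 and 0.0498). Within the cluster they had 0.70, 0.48 and 0.30, and none passed (adjusted p = 0.11, 0.191 and 0.622). Mia, a small secreted cartilage protein, rose by 1.14 in all elastin-dominant cells and had 0.32 within the cluster. Fez1, a kinesin adaptor, and Ntf3, a neurotrophin, rose by 1.17 and 1.40, and did not pass within the cluster (0.67 and 0.93, adjusted p = 0.0939 and 0.212). Without AD_ABR replicate 2, Prss12, Hhip, Mia and Ntf3 did not pass (adjusted p = 0.0692, 0.0986, 0.138 and 0.102), nor did Adamtsl1 and Dlx5 (0.0545 and 0.165). Without AD_ABR replicate 1, Adamtsl1 and Dlx5 again did not (0.0886 and 0.111).

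**Figure D4:**
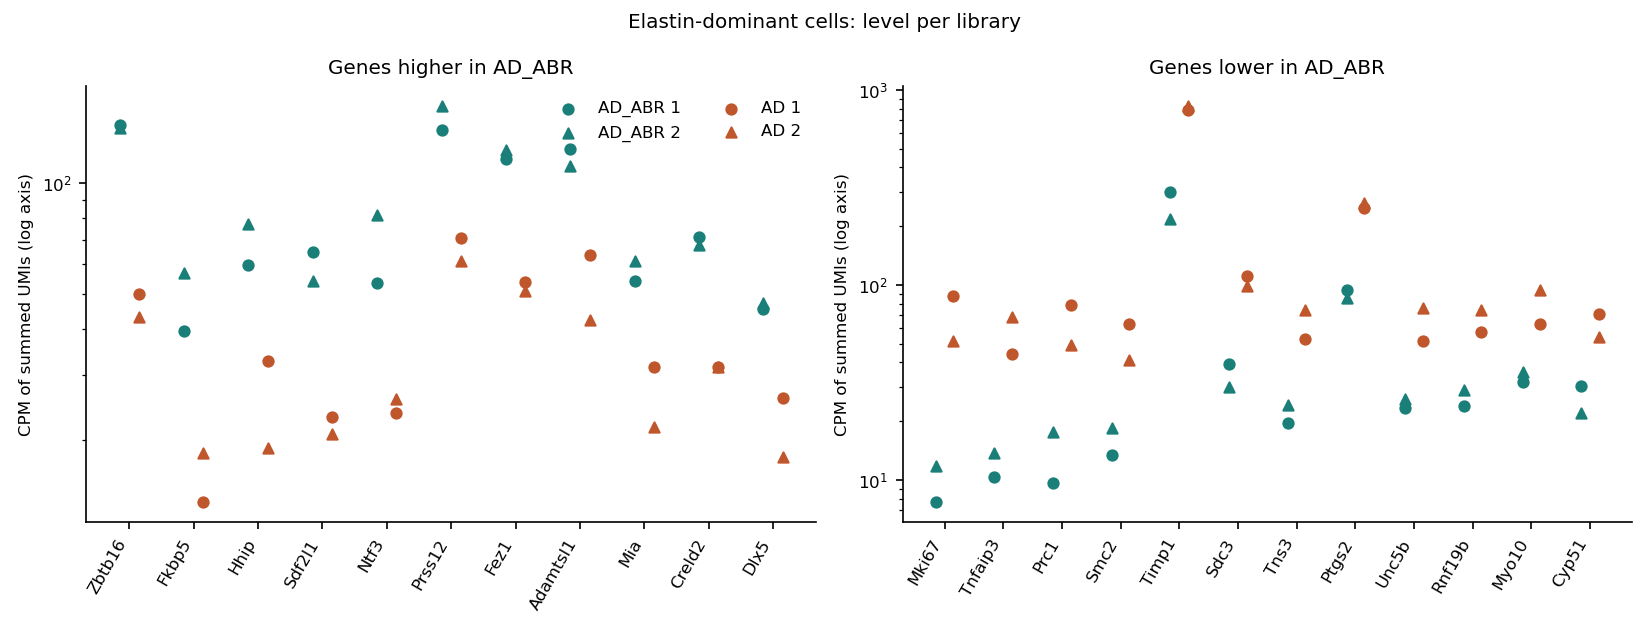
Level in elastin-dominant cells (vertical axis, CPM of summed UMIs, log axis) of the named genes that rose and that fell, 1 point per library, AD_ABR left of AD. The points of the 2 groups do not overlap for any of these genes, which was a condition for naming them.

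Sdf2l1 and Creld2, which act in protein folding in the endoplasmic reticulum, rose together. Sdf2l1 was at 64.9 and 54.2 CPM in AD_ABR, against 23.2 and 20.8 CPM in AD (log2 fold change 1.42 ± 0.18, adjusted p = 0.0177). Creld2 was at 71.0 and 67.9 CPM in AD_ABR, against 31.6 CPM in both AD libraries (1.11 ± 0.16, adjusted p = 0.0284). Both AD_ABR libraries lay above both AD libraries for the 2 genes. Of 17 genes of the unfolded protein response tested, these 2 rose and 0 fell (median 0.37). Hspa5, the main chaperone of that compartment, was at 1481 and 1501 CPM in AD_ABR, against 1089 and 1176 CPM in AD, and did not pass (0.37 ± 0.17, adjusted p = 0.361). Manf, a secreted stress protein of the list, had 0.73 (adjusted p = 0.101) and passed in the Rgs5 and Prss12 cluster (0.99, adjusted p = 0.012). Sdf2l1 and Creld2 did not pass in that cluster (1.57 and 1.32, adjusted p = 0.0557 and 0.0572). Without 1 library Creld2 no longer passed, with an adjusted p = 0.0628 without AD_ABR replicate 1 and 0.0504 without AD_ABR replicate 2.

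Many genes of this response carry the ER stress response element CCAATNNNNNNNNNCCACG near their start, and the 3 promoters below are shown because the 2 genes that rose differ in it. They are the 250 bases before the gene start on the gene's strand, from RefSeq on GRCm38.p6, with the element in capitals (in Creld2 it lies on the opposite strand). Hspa5 is at chr2:34771840-34772089 on the plus strand, Creld2 at chr15:88819396-88819645 on the plus strand and Sdf2l1 at chr16:17132384-17132633 on the minus strand.
Hspa5: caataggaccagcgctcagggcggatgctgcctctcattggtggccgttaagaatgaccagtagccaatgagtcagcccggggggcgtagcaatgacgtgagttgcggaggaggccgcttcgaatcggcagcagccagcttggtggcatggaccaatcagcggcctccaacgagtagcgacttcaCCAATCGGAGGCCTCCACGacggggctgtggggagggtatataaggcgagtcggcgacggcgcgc
Creld2: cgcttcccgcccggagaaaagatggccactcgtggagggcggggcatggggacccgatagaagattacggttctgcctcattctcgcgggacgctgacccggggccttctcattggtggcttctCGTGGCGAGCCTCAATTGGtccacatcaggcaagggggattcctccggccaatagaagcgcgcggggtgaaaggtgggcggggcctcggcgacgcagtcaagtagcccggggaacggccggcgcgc
Sdf2l1: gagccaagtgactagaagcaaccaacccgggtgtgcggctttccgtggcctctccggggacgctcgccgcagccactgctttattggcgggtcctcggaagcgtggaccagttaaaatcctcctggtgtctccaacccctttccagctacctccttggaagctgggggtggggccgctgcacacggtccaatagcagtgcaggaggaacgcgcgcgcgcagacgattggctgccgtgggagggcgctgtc
Searched on both strands, the element was present in the windows of 7 of 17 listed genes with a promoter, Hspa5 and Creld2 among them, and in 0.113% of 32851 promoters. In these windows its first base lay at −65 in Hspa5 and at −126 in Creld2, counted from the gene start, and these letters are not in the Sdf2l1 window. A match is a description of the sequence.

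Inflammatory genes were among those that fell. Ptgs2, the inducible prostaglandin synthase, was at 94.4 and 85.2 CPM in AD_ABR, against 247 and 263 CPM in AD (log2 fold change −1.53 ± 0.15, adjusted p = 0.0067). Tnfaip3, an NF-kB target that also restrains that pathway, was at 10.4 and 13.7 CPM in AD_ABR, against 44.1 and 68.4 CPM in AD (−2.29 ± 0.28, adjusted p = 0.0188). For both genes the groups lay apart by more than the spread of the libraries. With Eln at 2 times Acta2 plus Tagln or more neither passed (Ptgs2 −1.28, adjusted p = 0.253, and Tnfaip3 −1.64, adjusted p = 0.17), nor did they within the Rgs5 and Prss12 cluster (−1.59 and −2.17, adjusted p = 0.0697 and 0.1004), and Tnfaip3 did not with high doublet scores removed (−2.50, adjusted p = 0.141). Of 20 NF-kB targets 0 rose and 3 fell (Tnfaip3, Tnfaip2 and Ptgs2), with a median of −1.13. Of these 20 genes 6, Tnfaip3 and Tnfaip2 among them, were in the elastin-dominant cells at less than 0.25 of their level in the rest of the kept barcodes. The chemokine Ccl2 had 47.6 and 59.7 CPM in AD_ABR, against 69.5 and 315 CPM in AD, and Il6 had 9.21 and 39.7 CPM in AD_ABR, against 40.1 and 115 CPM in AD. Tnfaip2 did not pass without AD_ABR replicate 1 or 2 (adjusted p = 0.18 and 0.184). Ccl2 and Il6 did not pass with all libraries (adjusted p = 0.539 and 0.585), and AD replicate 2 was the highest library for both.

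Timp1, an inhibitor of matrix metalloproteases, was at 299.8 and 217 CPM in AD_ABR, against 792 and 828 CPM in AD (−1.67 ± 0.20, adjusted p = 0.0143). Timp1 leads the Spp1 and Mgp cluster, whose share was lower in AD_ABR, and it also fell inside the Rgs5 and Prss12 cluster (−1.25, adjusted p = 0.0262). It did not pass with Acta2 plus Tagln at 1% or more (−0.99, adjusted p = 0.166), with Eln at 2 times Acta2 plus Tagln or more (−1.01, adjusted p = 0.213) or without AD_ABR replicate 2 (−1.44, adjusted p = 0.0631). Timp4, of the same family, went the other way, at 28.0 and 27.9 CPM in AD_ABR, against 6.21 and 5.70 CPM in AD (2.21 ± 0.25, adjusted p = 0.0143). Mmp14, a membrane-bound metalloprotease, fell by 0.94 on the log2 scale (adjusted p = 0.0354), so of 19 proteases and inhibitors tested 1 rose and 2 fell (median −0.11). Tnc, a matricellular protein of injured tissue, fell by 0.97 (adjusted p = 0.0382). Sdc3, a syndecan, and Tnfrsf11b fell by 1.62 and 1.22 (adjusted p = 0.0143 and 0.0397), and both lead the Spp1 and Mgp cluster. Without AD_ABR replicate 1, Mmp14 and Tnc did not pass (adjusted p = 0.106 and 0.15), and without AD_ABR replicate 2 Mmp14, Tnc and Tnfrsf11b did not (0.257, 0.179 and 0.175). In all, 6 of the 59 genes that fell lead that cluster and 7 lead the cycling cluster, and the part of cluster shares in these changes was not tested.

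Further named genes that fell act in the cytoskeleton, guidance and ubiquitin transfer. Tns3, a tensin of focal adhesions, Myo10, a myosin of filopodia, and Unc5b, a netrin receptor, fell by 1.59, 1.27 and 1.43 (adjusted p = 0.0284, 0.0496 and 0.0379). Rnf19b, a ubiquitin ligase, was at 23.8 and 29.1 CPM in AD_ABR, against 57.0 and 74.3 CPM in AD (−1.36 ± 0.21, adjusted p = 0.0325). It passed in the Rgs5 and Prss12 cluster too (−1.46, adjusted p = 0.0229), while Myo10 and Unc5b had −0.37 and −0.50 there. Without AD_ABR replicate 1, Unc5b, Rnf19b and Myo10 did not pass (adjusted p = 0.0851, 0.0729 and 0.159), and without AD_ABR replicate 2 Unc5b and Myo10 did not (0.0789 and 0.133).

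Genes of sterol synthesis had negative fold changes. Of 20 genes of sterol and fatty acid synthesis tested, 0 rose and 2 fell, Cyp51 among them, and the median was −0.85. Cyp51, a demethylase of cholesterol synthesis, was at 30.3 and 21.99 CPM in AD_ABR, against 70.6 and 53.9 CPM in AD (−1.25 ± 0.21, adjusted p = 0.0397). Each AD_ABR library lay below each AD library. Sqle, the squalene epoxidase, just missed the threshold (−1.20 ± 0.23, adjusted p = 0.0514) and passed in the Rgs5 and Prss12 cluster (−1.80, adjusted p = 0.00744), where 6 of 18 genes of the list fell. Without AD_ABR replicate 2 Cyp51 did not pass (adjusted p = 0.155).

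Cell-cycle genes fell as well. Mki67, a marker of cycling cells, was at 7.68 and 11.8 CPM in AD_ABR, against 88.1 and 51.7 CPM in AD (−2.82 ± 0.31, adjusted p = 0.0157). Prc1 and Smc2, which organise the dividing spindle and the chromosomes, fell by 2.21 and 1.69 (adjusted p = 0.0377 and 0.0294), and Pclaf, a partner of the replication clamp, by 2.23 (adjusted p = 0.0143). Of 8 proliferation markers 2 fell, and the median was −1.96. These transcripts sat mostly in the cycling cluster, which had 2 and 6 cells in AD_ABR, against 9 and 17 in AD. With that cluster and the immune and Il6 clusters left out, Prc1 and Smc2 no longer passed (−1.30 and −0.15, adjusted p = 0.143 and 0.89). With high doublet scores removed none of the 4 passed: Mki67 had −2.48, Prc1 −1.77, Smc2 −1.27 and Pclaf −1.17 (adjusted p = 0.0951, 0.19, 0.117 and 0.234).

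The genes that give these cells their name showed no called change with treatment. Lox had a log2 fold change of −0.44 ± 0.23 (adjusted p = 0.449), Loxl1 of −0.07 (0.897), Loxl2 of −0.22 (0.637) and Loxl3 of −0.68 ± 0.16 (0.0893), and Loxl4 was too low to test. Actg2 had 0.05 ± 0.45 (adjusted p = 0.978). Of 19 elastic fibre genes 0 passed (median 0.19), with the microfibril gene Mfap5 at 2289 and 2423 CPM in AD_ABR, against 1183 and 1491 CPM in AD (0.79 ± 0.19, adjusted p = 0.101). Of 19 contractile genes 0 passed (median 0.26), and of 16 collagen chains 0 passed (median −0.10). A missed threshold with 2 libraries a group does not show that levels were alike: for Fbln5 the difference of 0.19 had a standard error of 0.19. In the TGF-beta pathway 1 of 20 genes rose, the receptor Tgfbr1, at 139 and 137 CPM in AD_ABR, against 79.1 and 79.5 CPM in AD (0.78 ± 0.14, adjusted p = 0.0477). Without AD_ABR replicate 1 or 2 Tgfbr1 did not pass (adjusted p = 0.243 and 0.225).

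Signs of library quality moved with the groups in the same cells. Lars2, which encodes a mitochondrial tRNA synthetase and is listed here among signs of ribosomal RNA, fell to 619 and 484 CPM in AD_ABR, against 1555 and 1005 CPM in AD (−1.23 ± 0.22, adjusted p = 0.0477). It fell in the Rgs5 and Prss12 cluster as well (−1.42, adjusted p = 7.5e-05), and without AD_ABR replicate 1 or 2 it did not pass (adjusted p = 0.0965 and 0.329). Of 18 genes induced by tissue dissociation 0 passed in all elastin-dominant cells (median −0.01). In the Rgs5 and Prss12 cluster 0 of these 18 rose and 3 fell (median −0.18), beside 0.505% of all genes called down there. Macrophage markers, all 7 tested at less than 0.25 of their level in the rest, had a median of 0.95 with 0 passing. The part of these signs in the other changes was not tested.

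**Figure D5:**
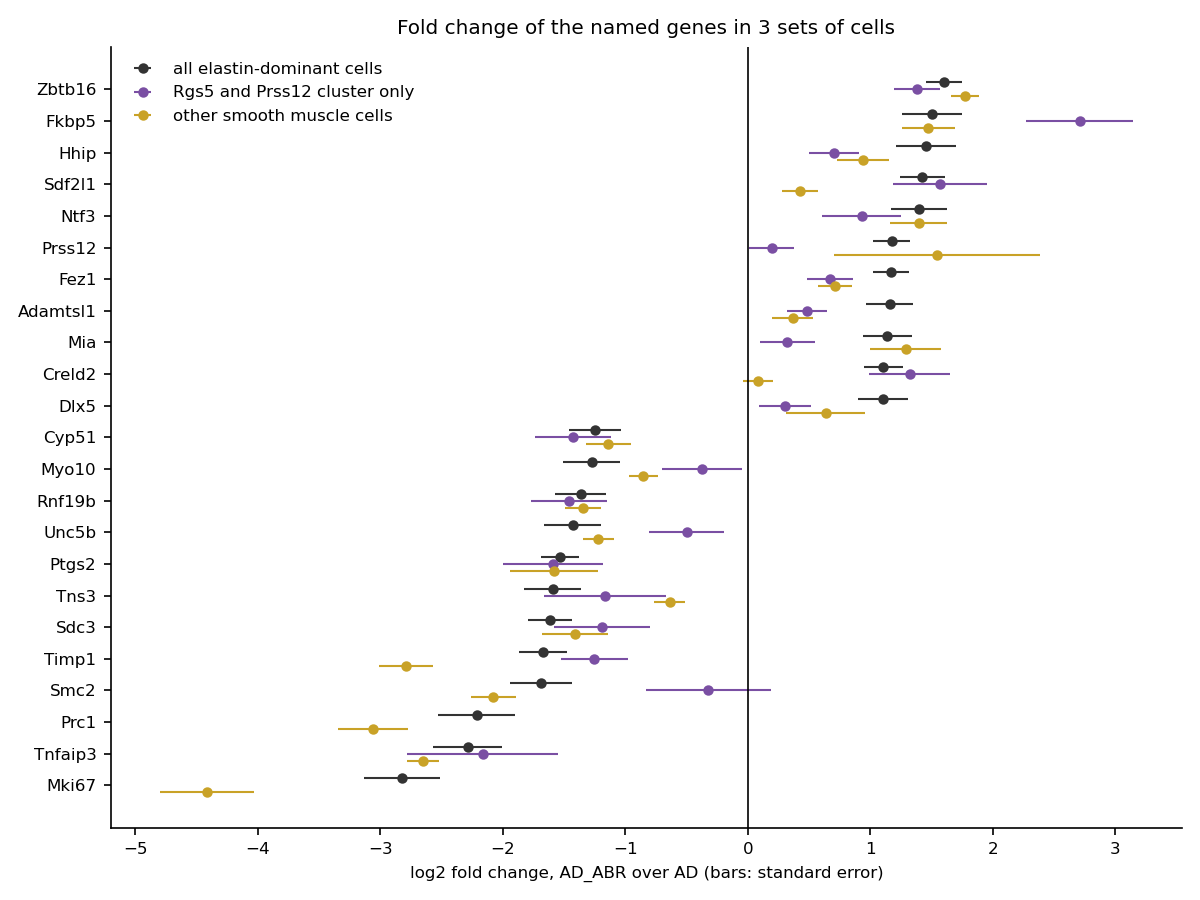
Log2 fold change, AD_ABR over AD (horizontal axis, bars are standard errors), of the named genes (vertical axis) in all elastin-dominant cells, in the Rgs5 and Prss12 cluster alone and in other smooth muscle cells. Zbtb16 and Fkbp5 lie right of 0 in all 3 sets, while Prss12, Dlx5 and Mia lie near 0 in the cluster.

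Whether elastin-dominant cells responded differently from other smooth muscle cells was tested as an interaction between cell class and treatment with the library as a block. Of 13769 genes 15 were called (0.109%). The difference, elastin-dominant minus other smooth muscle cells, was positive for 13 (0.0944%) and negative for 2 (0.0145%). Its sign does not give the size of a response, since a positive difference can be a smaller fall. Nt5dc2, Il33, Fkbp11 and Loxl2 fell in the other smooth muscle cells and had no called change in the elastin-dominant cells. Nt5dc2, a member of a nucleotidase family, was at 41.1 and 48.3 CPM in the elastin-dominant cells of AD_ABR, against 28.2 and 39.4 CPM in those of AD. In the other smooth muscle cells it was at 4.57 and 7.01 CPM in AD_ABR, against 47.8 and 49.1 CPM in AD. The difference in response was 3.30 on the log2 scale (adjusted p = 1.29e-05).

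Fkbp11, a peptidyl-prolyl isomerase of the secretory pathway, was at 76.4 and 77.3 CPM in the elastin-dominant cells of AD_ABR, against 85.8 and 103 CPM in those of AD. Its levels in the other smooth muscle cells were 23.5 and 28.5 CPM in AD_ABR, against 87.7 and 83.6 CPM in AD (difference 1.27, adjusted p = 0.00938). Loxl2, a lysyl oxidase, fell in the other smooth muscle cells (−1.31, to 31.3 and 35.1 CPM in AD_ABR, against 86.2 and 91.6 CPM in AD), and its difference in response was 1.09 (adjusted p = 0.0438). Il33, an alarmin cytokine, differed by 2.13 (adjusted p = 0.0161), with an overlap of the groups in the elastin-dominant cells. Timp1 fell in both classes, by 1.67 in the elastin-dominant cells and by 2.79 in the other smooth muscle cells, and the difference was 1.13 (adjusted p = 0.0128).

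The 2 genes with a negative difference were Lpl and Tgm2. Lpl, the lipoprotein lipase, was at 49.9 and 89.9 CPM in the elastin-dominant cells of AD_ABR, against 160.4 and 291 CPM in those of AD, with −0.56 in the other smooth muscle cells (difference −1.19, adjusted p = 0.0204). Tgm2, a transglutaminase, was at 88.3 and 72.6 CPM in the elastin-dominant cells of AD_ABR, against 124 and 95.1 CPM in those of AD, and rose by 0.39 in the other smooth muscle cells (difference −0.85, adjusted p = 0.0463). In the elastin-dominant cells alone neither passed (adjusted p = 0.225 and 0.28). With Acta2 plus Tagln at 1% of UMIs or more in both classes, the differences for Fkbp11, Timp1 and Loxl2 were −0.16, −0.13 and −0.035, so the sign turned for these 3. Of all 15 called genes 6 turned there and 3 were still called. With Pdgfra at 0 the differences for Fkbp11, Timp1, Loxl2, Lpl and Tgm2 did not pass (adjusted p = 0.308 to 0.953). Without AD_ABR replicate 1 the differences for Fkbp11, Timp1, Loxl2, Lpl and Tgm2 did not pass (adjusted p = 0.0646 to 0.333), and without AD_ABR replicate 2 those for Timp1 and Tgm2 did not (0.233 and 0.535). Of the 93 genes called in the elastin-dominant cells, all were fitted in the other smooth muscle cells, where 92 had the same direction and 76 passed, beside 21.4% of all genes called there. For Zbtb16, Fkbp5 and Klf15 the differences in response were −0.17, 0.03 and −0.23 (adjusted p = 0.895, 1 and 0.925).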

How the data were processed

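The deposited matrices hold UMI counts per gene and barcode of 10x Genomics 3′ libraries, whole and not normalized. Per the file headers the software was Cell Ranger 7.1.0, whereas the submitters' processing notes list Seurat 4.0, STAR, GRCm38 and release 6.0 of Cell Ranger; the annotation and any cell filter by the authors are not given in the sources used here. Counting strand and overlap rules are not given either, so overlapping genes are uncertain. Coordinates come from GENCODE M21, which held 52081 of 55357 gene identifiers; promoters come from RefSeq.

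Barcodes were kept and elastin-dominant cells chosen as the results state. The members and gene lists were chosen with earlier results of these data known. Doublets were scored with Scrublet in scanpy 1.11.5 and kept; an alternative removed the highest scores at 0.8% per 1000 barcodes. Members were clustered on 1500 variable genes, 20 components and 15 neighbours with Leiden at resolution 0.6, without integration.

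UMIs were summed per library, since cells are not replicates, and tested with edgeR 4.0.16 in R 4.3.3: TMM, filterByExpr, robust glmQLFit and the quasi-likelihood F test, with Benjamini-Hochberg adjustment over all genes tested at 0.05. All adjusted p-values in the results are edgeR's. Standard errors are the fold change over the square root of F. The 5 genes of the rule were left out of the counts. On simulated counts this test recovered 74% of genes changed by a log2 of 1 and 100% of those changed by 2 between groups (11034 genes, 5 false calls). For the interaction it recovered 24 and 96% (13282 genes, 8 false calls), so differences in response of a log2 of 1 were mostly missed. The simulation gave all genes the same dispersion, drew every sum independently and changed only genes with enough counts. That dispersion was not fitted to the real libraries, so recovery and false calls on them can differ.

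Named genes with treatment were the 12 largest changes in each direction among called genes of at least 30 CPM whose groups did not overlap; for the interaction up to 5 a direction by the same filter; against other smooth muscle cells the 15 genes a direction whose ratio was widest in the library where it was narrowest. Predicted genes were counted but not named, some results are not reported here, and called list genes and the lysyl oxidases were added. Replicate numbers were not taken as pairs, since the labels give no shared source. Alternatives were other limits of the rule, doublet removal, DESeq2 1.42.0 and its size factors, no filter on low counts, a replicate block, each library left out, and, added after the data were seen, fits within clusters.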

Additional observations from a re-analysis of the deposited data

Results flagged for a closer look

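For 7 named genes, of the 15 called, the response to treatment in the elastin-dominant cells differed from that in the other smooth muscle cells of the same libraries by the interaction test, and their differences are on the log2 scale (response of elastin-dominant cells minus response of other smooth muscle cells). Nt5dc2 differed by 3.30, Il33 by 2.13, Fkbp11 by 1.27, Timp1 by 1.13 and Loxl2 by 1.09. Lpl differed by −1.19 and Tgm2 by −0.85. Nt5dc2 and Il33 also passed with each of the 4 libraries left out in turn. Nt5dc2 did not pass with Acta2 plus Tagln at 1% or more (0.94, adjusted p = 0.398), and Il33 did not with a mitochondrial share below 10% (2.16, adjusted p = 0.0545). With that lower limit 5 of the 7 did not pass, namely Il33, Timp1, Loxl2, Lpl and Tgm2. With Pdgfra at 0, 5 of the 7 did not pass either, namely Fkbp11, Timp1, Loxl2, Lpl and Tgm2.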

How the results depend on the processing

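With 2 libraries a group and 188 to 513 cells a library, changes of 2-fold or less can be missed. The 93 treatment calls became 11 with Eln at 2 times Acta2 plus Tagln or more, 250 with Acta2 plus Tagln at 1% or more, 262 with Pdgfra at 0, 21 with a mitochondrial share below 10%, 29 with high doublet scores removed, 683 with no filter on low counts, 20 in the Igfbp2 and Wnt16 cluster and 175 without the immune, cycling and Il6 clusters. With each library left out in turn there were 64 to 578. The number of called genes with the replicate block was 299, among them all 93. The correlation of same-numbered libraries was 0.117, a value that both pairs share by construction with 2 libraries a group. DESeq2 called 89 genes, 48 of them among the 93. The 15 differences in response became 27 at 1% (3 of the 15 among them, while 6 turned), 7 with the lower mitochondrial limit, 60 with high doublet scores removed, 224 with no filter, 215 in the Rgs5 and Prss12 cluster, 74 in the Igfbp2 cluster, 332 without the 3 clusters, and 17 to 412 with each library left out. At 1%, Fkbp11 turned to −0.16, Timp1 to −0.13 and Loxl2 to −0.035. The 49 genes past 2-fold against other smooth muscle cells became 9 at 3-fold and 56 to 84 with each library left out. The difference in the share of kept barcodes, −0.347 percentage points, was 0.271 at 1%, and −1.80 to 1.11 with each library left out; that in the share of smooth muscle barcodes, −9.57, was −6.84 at a ratio of 2 and −4.86 at 1%, with the same sign in every alternative run. Of 34 treatment genes, 24 chosen by the rule for naming and 10 from the lists, 0 changed direction in an alternative that could fit them, while 4 of the 93 called genes did in the Igfbp2 and Wnt16 cluster. The causes of these shifts were not tested.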
